A study of Mus musculus with 24 samples.

Results

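The colon of mice given an enema of trinitrobenzene sulfonic acid (TNBS) was compared with the colon of mice given a control enema, both on the standard diet. The members were all arrays whose source label names the standard diet with either enema, which gave 12 of the 24 arrays in the series. They are 3 control and 3 TNBS samples, each hybridised to an Affymetrix MOE430A and a MOE430B array. All mice were BALB/c, 6 to 8 weeks old and without a named transgene or deletion. The diet began 2 days before the enema on day 0, and whole colon was taken on day 7. The RNA was a pool of 3 mice per diet and enema group. Whether the replicates of a group were separate pools is not given in the labels, so the p-values measure the spread between samples, which may be technical. The other 12 arrays, from mice on a 2% curcumin diet with control or TNBS enema, entered the fit for the spread and served for one comparison at the end.

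TNBS is a hapten: placed in the colon, usually in ethanol, it binds to tissue proteins and provokes a colitis that is widely used as a model of Crohn's disease. Epithelial cells of an inflamed colon secrete antimicrobial proteins, and chemokines draw neutrophils and monocytes into the wall. Tissue repair follows, with deposition and remodelling of matrix, while the surface colonocytes that carry transport and detoxification are often lost or less differentiated. In whole colon, fewer cells of a type and less RNA per cell cannot be told apart.

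The deposited signals are on a linear scale and had been brought to a common mean, near 500 with the extreme 2% trimmed. The 6 arrays compared had median signals of 246.7 to 280.4 (430A) and 281.1 to 303.9 (430B). As a sign of RNA quality, the 3'/5' ratio of Gapdh on 430A was 0.74 to 0.796 in the control samples and 0.743 to 0.874 in the TNBS samples. On 430A the first principal component over the 12 arrays held 31.4% of the variance and parted the samples across the groups. Control 1, TNBS 2 and TNBS 3 lay on one side, called array set 1, and control 2, control 3 and TNBS 1 on the other, called array set 2. On 430B, 2 arrays of the curcumin-diet TNBS group (replicates 2 and 3) stood more than 5 median absolute deviations apart. Genes of the exocrine pancreas and the seminal vesicle also parted single samples, as described further on.

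With an adjusted p under 0.05 in limma, Lcn2 rose on 430A and Clca4b and 1 unnamed probe set rose on 430B. They were 1 of 22626 probe sets (0.00442%) and 2 of 22511 (0.00888%), and 0 fell on either array type. At an unadjusted p under 0.05 there were 1663 and 1206 probe sets in either direction. With array set in the model, 20 probe sets rose (0.0884%) and 9 fell (0.0398%) on 430A, and Lcn2 was among them. Without the 2 outlying 430B arrays, the count there stayed at 2 higher and 0 lower. The count depended on the curcumin-diet arrays that help to set the spread: without replicate 3 of the curcumin-diet control group, 49 probe sets (0.217%) rose and 7 (0.0309%) fell on 430A, and 7 (0.0311%) rose on 430B. With the 6 arrays alone, 12 (0.0530%) and 14 (0.0622%) rose. When limma was run without an intensity trend, no probe set passed. The adjusted p was then 0.173 for Lcn2, 0.108 for Clca4b and 0.101 for the unnamed probe set.

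For the description of gene groups, each gene was given 1 probe set, and genes were kept where its mean log2 signal lay above the 40th percentile of the array type, a floor at a signal of 178 on 430A and 193 on 430B. Among the 12908 genes kept, all 3 TNBS samples lay above all 3 control samples for 990 genes (7.67%) and below them for 943 (7.31%). A difference of at least 2-fold without overlap was seen for 78 genes (0.604%) higher and 39 (0.302%) lower with TNBS, and over all 18193 genes on the arrays for 255 (1.40%) and 150 (0.824%). Of the 78, the lowest TNBS sample was TNBS 2 in 49. Of the 39, the lowest was TNBS 1 in 21. The median log2 difference over all genes kept was -0.012. Because the floor is a mean over 4 groups, a gene that was high in the standard-diet TNBS group alone could fall under it. Another could pass it only through that group and then be counted as higher. The counts were therefore repeated over all 18193 genes on the arrays, where 1393 (7.66%) were higher and 1183 (6.50%) lower without overlap.

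Lcn2 encodes lipocalin 2, which binds the siderophores that bacteria use to take up iron and is made by neutrophils and inflamed epithelium. Its signals were 56.9, 114.4 and 72.8 in the control samples and 6003.1, 2957.2 and 5714.3 in the TNBS samples. The lowest TNBS sample stood far above the highest control sample. The fold was 59.8, a log2 difference of 5.90 ± 0.64 (SE, n = 3 per group), with an adjusted p of 0.0171, and the log2 differences within array sets 1 and 2 were 6.18 and 6.04. When any 1 of the 6 samples compared was left out, the adjusted p lay between 0.0568 and 0.198 while the log2 difference stayed between 5.67 and 6.23. Leaving out replicate 3 of the curcumin-diet TNBS group gave an adjusted p of 0.0518.

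Saa3 and Reg3g, secreted defence proteins on the same arrays, were also far apart between the groups. Serum amyloid A 3 is a local acute phase protein, and its signals were 240.6, 303.8 and 442.8 in the control and 4098.1, 2023.2 and 3425.0 in the TNBS samples. Reg3g is a C-type lectin that kills Gram-positive bacteria, with 554.5, 873.7 and 546.9 against 11672.9, 3127.2 and 6482.3. Neither gene's groups overlapped. Their log2 differences were 3.26 ± 0.48 and 3.27 ± 0.51 (SE), with an adjusted p of 0.0734 for both, and 0.0392 and 0.0477 with array set in the model.

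The 250 bases before the RefSeq start of Lcn2, Saa3 and Reg3g are shown because these genes were high in the same 3 samples and lie on different chromosomes. Capitals mark matches to 4 motifs, searched by letters alone on both strands except for the TATA box, which was read on the gene's strand. The build is GRCm38.p6, each sequence runs 5' to 3' along the gene, and the windows end at the base before the annotated start.
Lcn2, chr2:32387740-32387989, minus strand: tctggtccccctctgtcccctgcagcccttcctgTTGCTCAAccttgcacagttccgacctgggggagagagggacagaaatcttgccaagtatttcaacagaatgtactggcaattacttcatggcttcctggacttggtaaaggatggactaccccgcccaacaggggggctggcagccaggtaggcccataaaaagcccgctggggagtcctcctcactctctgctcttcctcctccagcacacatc
Saa3, chr7:46715677-46715926, minus strand: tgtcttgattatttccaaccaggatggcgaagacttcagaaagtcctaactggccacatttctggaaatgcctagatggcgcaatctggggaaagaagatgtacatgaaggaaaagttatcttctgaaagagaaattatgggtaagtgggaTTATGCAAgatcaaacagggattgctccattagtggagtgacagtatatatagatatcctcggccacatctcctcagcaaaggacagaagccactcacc
Reg3g, chr6:78468875-78469124, minus strand: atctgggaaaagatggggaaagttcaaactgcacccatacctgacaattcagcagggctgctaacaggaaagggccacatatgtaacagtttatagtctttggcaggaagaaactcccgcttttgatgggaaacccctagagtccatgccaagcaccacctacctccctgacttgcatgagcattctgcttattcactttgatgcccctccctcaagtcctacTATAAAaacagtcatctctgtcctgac
A C/EBP-type match (TTNNGCAA) was found in the Lcn2 window, 216 to 209 bases before the start, and in the Saa3 window, 99 to 92 bases before it. Over the 32851 RefSeq promoters of the same length, 9.56% held such a match. The TATA box (TATAAA, in 7.59% of promoters) was found in the Reg3g window at 27 to 22 bases before the start. The STAT-type letters TTCNNNGAA (7.02%) and the kappa B-type letters GGANNTTCC (3.59%) were in none of the 3 windows, which says only that these letters are not there. No motif overlapped another.

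Acute phase and antimicrobial proteins were higher as a group. Of 30 listed genes, 23 lay above the floor and 15 of them were higher without overlap, against 7.67% of all genes, with 0 lower. The median log2 difference was 1.16, and 1.21 within each array set. Over the 29 on the arrays, 19 were higher and 0 lower. Past the threshold was 1, Lcn2, and with array set in the model there were 4. Among all 12908 genes above the floor, 2 were higher past the threshold and 0 lower. With array set in the model, or without the outlying arrays for the other array type, 9 of the 12908 were higher and 6 lower.

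The list includes lectins of the Reg family. Reg3a read 18.8, 64.2 and 30.3 in the control samples, near the bottom of the scale, and 5711.1, 1626.3 and 4472.8 with TNBS. Reg3b, a lectin active against Gram-negative bacteria, read 4167.3, 5884.6 and 2851.6 in the control and 21537.0, 14385.7 and 15068.7 in the TNBS samples. The Reg3a difference, 6.71 ± 1.39 on the log2 scale, had an adjusted p of 0.144, and was 5.14 with a pseudocount of 64. Reg3a lay above the floor through the samples where it was high. So did Lcn2, which read under the floor in every standard-diet control and curcumin-diet TNBS sample. The difference of Reg3b, 2.02 ± 0.37, had an adjusted p of 0.114, and its other probe set had a log2 difference of 0.94. Retnlb, the goblet cell product resistin-like beta, went from 2774.3, 1908.3 and 2052.9 to 11043.5, 7286.3 and 7742.9. Its log2 difference was 1.95 ± 0.42, with an adjusted p of 0.162, and 0.0314 in the fit of the 6 arrays alone.

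For Hp and Lrg1 the control signals were near the bottom of the scale. Haptoglobin (Hp), which scavenges free haemoglobin, read 20.4, 18.2 and 18.3 in the control and 734.0, 735.9 and 2038.5 in the TNBS samples. Lrg1, a leucine-rich glycoprotein of acute phase plasma and neutrophil granules, read 22.0, 27.2 and 30.4 against 2284.1, 1197.5 and 2024.8. Both genes lie under the floor and were singled out after their values were seen, as were Clec4e, S100a8, S100a9, Chil3, Arg1, Cxcl1 on 430A, Cxcl2 and Cxcl5 below. For Hp the log2 difference was 5.77 ± 0.97 and the adjusted p 0.0766, and 0.0624 with array set in the model. For Lrg1 they were 6.07 ± 0.94, 0.0734 and 0.0471. With control signals this low the size of the difference depends on the scale, and with a pseudocount of 64 it was 3.73 for Hp and 4.34 for Lrg1.

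**Figure D1:**
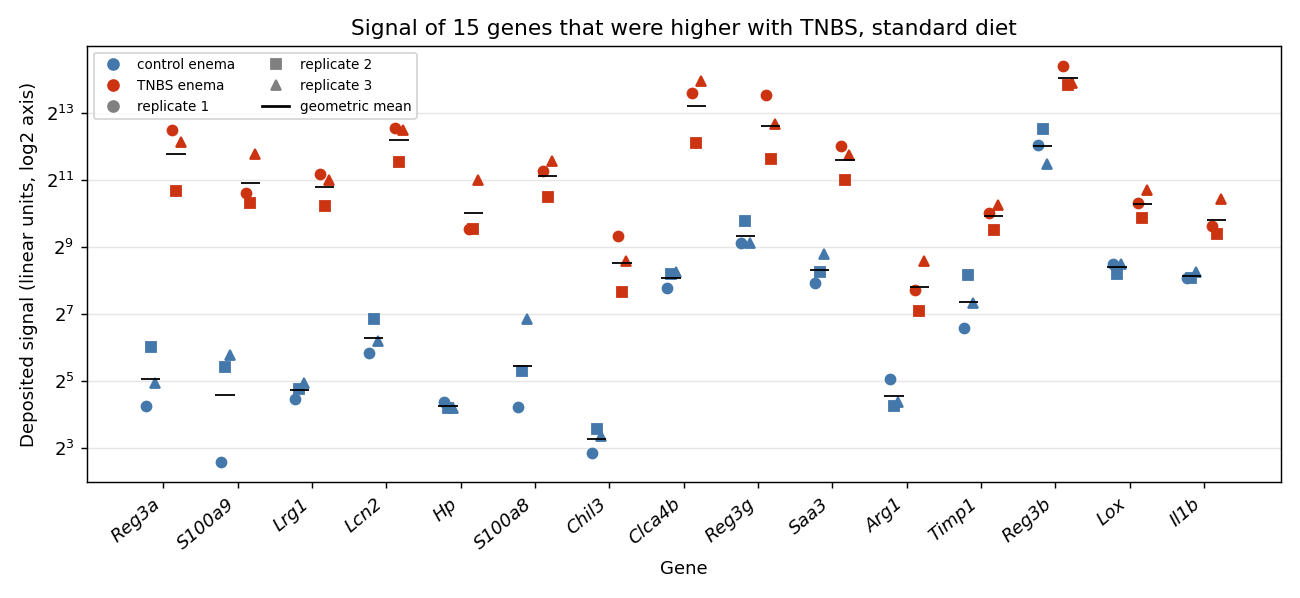
Deposited signal of 15 genes on a log2 axis in the 3 control (blue) and 3 TNBS (red) samples on the standard diet, with a bar at the geometric mean of each group and a marker shape for each replicate. The groups do not overlap for any of the 15 genes, and for Lcn2 the 3 TNBS samples lie between 2957 and 6003 against 56.9 to 114.4 in the control samples.

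Neutrophil genes were higher as a group, in a list that shares members with others. Lcn2 and Ltf are also on the acute phase list, and Mmp8 and Mmp9 on the list of metalloproteinases. Of 24 listed, 11 lay above the floor. Among these, 9 were higher without overlap and 0 lower, against 7.67% and 7.31% of all genes. The median log2 difference was 0.96 (0.88 and 1.16 within the array sets). Of the 20 on the arrays, 13 were higher and 0 lower. S100a8 and S100a9 form calprotectin, the zinc- and manganese-binding protein that fills the neutrophil cytosol. S100a8 read 18.5, 39.5 and 113.6 in the control and 2457.6, 1431.0 and 2988.6 in the TNBS samples, and S100a9 read 5.9, 42.7 and 54.1 against 1558.3, 1272.9 and 3459.9. Their log2 differences, 5.65 ± 0.91 and 6.31 ± 1.08, had adjusted p-values of 0.0734 and 0.0769, and 0.0392 for both with array set in the model. With a pseudocount of 64 the differences were 4.30 and 4.36. The control signals of both lie under the floor. Both subunits were high in the same 3 samples, and for both the lowest control sample was control 1.

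Other neutrophil genes had smaller differences. Ngp, a neutrophilic granule protein, read 230.7, 317.4 and 304.0 in the control and 874.5, 445.7 and 537.6 in the TNBS samples. Mmp8, the neutrophil collagenase, read 146.0, 153.4 and 114.9 against 458.0, 375.4 and 286.4. With array set in the model both passed, at adjusted p-values of 0.0392 and 0.046, and without it they had 0.389 and 0.118. Ngp was named only because it passed there. Mpo, the myeloperoxidase of primary granules, read 224.5, 145.6 and 198.8 against 283.7, 252.3 and 360.5, a log2 difference of 0.66 ± 0.26 with an adjusted p of 0.57.

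Macrophage genes were higher in part. Of 21 above the floor, 8 were higher without overlap and 0 lower, against 7.67% and 7.31% of all genes. The median was 0.44, with 0.31 and 0.58 within the array sets. Over the 27 on the arrays, 11 were higher and 0 lower. Cd14, the co-receptor for bacterial lipopolysaccharide, read 1011.5, 723.0 and 766.9 in the control and 1467.3, 1583.3 and 2053.2 in the TNBS samples, with an adjusted p of 0.118. Chil3, a chitinase-like lectin of activated macrophages, read 7.2, 11.7 and 10.2 against 643.4, 201.9 and 378.7. Clec4e, the receptor Mincle, read 14.2, 20.7 and 16.7 against 187.4, 143.7 and 378.0, and its other probe set had a log2 difference of 0.97. Arg1, the arginase of alternatively activated macrophages, read 33.2, 18.9 and 20.7 against 208.9, 136.0 and 380.4. Chil3, Clec4e and Arg1 had adjusted p-values of 0.0734, 0.0734 and 0.0766, and passed at 0.0392, 0.0466 and 0.0422 with array set in the model. Their control signals were under the floor too, and their log2 differences of 5.27, 3.67 and 3.23 became 2.57, 1.81 and 1.72 with a pseudocount of 64.

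The counts for lymphocyte genes were small. Of 8 T and NK cell genes above the floor, 2 were higher without overlap and 0 lower, in lists too short to set against the 7.67% and 7.31% of all genes. Of 14 B and plasma cell genes, 2 were higher and 2 lower, and of 10 genes for MHC class II presentation 0 were higher and 1 lower. Jchain, which joins secreted IgA and IgM, read 8593.7, 9709.6 and 10518.8 in the control and 7804.6, 6724.6 and 8256.4 in the TNBS samples, with an adjusted p of 0.628. Of 22 interferon-induced genes, 3 were higher and 0 lower.

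Among the cytokines of the IL-1, IL-6 and TNF families and their receptors, 6 of 13 above the floor were higher without overlap and 0 lower. The shares of all genes were 7.67% and 7.31%. Over the 24 on the arrays, 11 were higher and 1 lower. Il1b, the inflammasome-processed cytokine of myeloid cells, read 266.4, 268.5 and 301.6 in the control and 780.0, 670.9 and 1370.1 in the TNBS samples. Its log2 difference was 1.69 ± 0.28, with an adjusted p of 0.0766, and 0.0466 with array set in the model. Osmr, the receptor subunit for oncostatin M, read 234.1, 236.9 and 360.3 against 450.8, 539.1 and 678.5, with an adjusted p of 0.266. Il6 lay under the floor, at 54.4, 55.4 and 65.0 against 128.9, 142.0 and 131.5, and its adjusted p was 0.469 in spite of the narrow groups.

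Tnf and the T helper cytokines often measured in this model did not separate the groups. Tnf read 192.5, 298.7 and 249.5 in the control and 292.7, 257.5 and 144.3 in the TNBS samples. Il17a read 197.8, 268.2 and 285.7 against 322.7, 217.4 and 217.8. Ifng, Il10 and Nos2 (the inducible nitric oxide synthase) lay under the floor with overlapping groups, at adjusted p-values of 0.995, 0.998 and 0.944. For these 5 genes the sign of the difference changed between settings, so no direction is given. Their signals are low, and a difference below the spread of such probe sets was not detectable here.

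Chemokines for neutrophils differed most at low signal. Cxcl1 on 430A read 18.0, 78.4 and 57.4 in the control and 390.2, 206.7 and 271.0 in the TNBS samples, and the brighter Cxcl1 probe set on 430B read 1204.6, 1309.3 and 1544.2 against 2040.9, 1918.4 and 2482.0. These 2 probe sets gave log2 differences of 2.69 ± 0.51 and 0.67 ± 0.15, with adjusted p-values of 0.117 and 0.39. A further Cxcl1 probe set had 0.89, nearer to the smaller difference. Cxcl2, another ligand of the neutrophil receptor Cxcr2, read 75.3, 94.1 and 119.7 against 416.9, 244.4 and 1112.6. Cxcl5, also such a ligand, read 3.6, 34.2 and 29.7 against 112.9, 99.7 and 205.9. Cxcl2 and Cxcl5 had log2 differences of 2.35 ± 0.53 and 3.10 ± 1.01, with limma adjusted p-values of 0.181 and 0.443. With a pseudocount of 64 the differences were 1.81 and 1.22. Cxcl13, which attracts B cells to follicles, read 887.8, 754.2 and 686.6 against 2108.9, 1559.7 and 2659.7, with an adjusted p of 0.118. Of the 18 CXC chemokines and receptors on the arrays 7 were higher without overlap and 0 lower, against 3 and 0 of the 7 above the floor. The shares of all genes were 7.66% and 6.50% on the arrays, and 7.67% and 7.31% above the floor.

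Ptgs2, the inducible cyclooxygenase, read 253.3, 178.7 and 174.6 in the control and 521.0, 390.2 and 413.6 in the TNBS samples, with an adjusted p of 0.212. Hpgd, the enzyme that degrades prostaglandins, read 2362.3, 2418.4 and 2428.5 against 1282.0, 2004.1 and 1193.6, with an adjusted p of 0.266, and its other probe set had a log2 difference of -0.19. The groups did not overlap for either gene, and the directions were opposite.

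**Figure D2:**
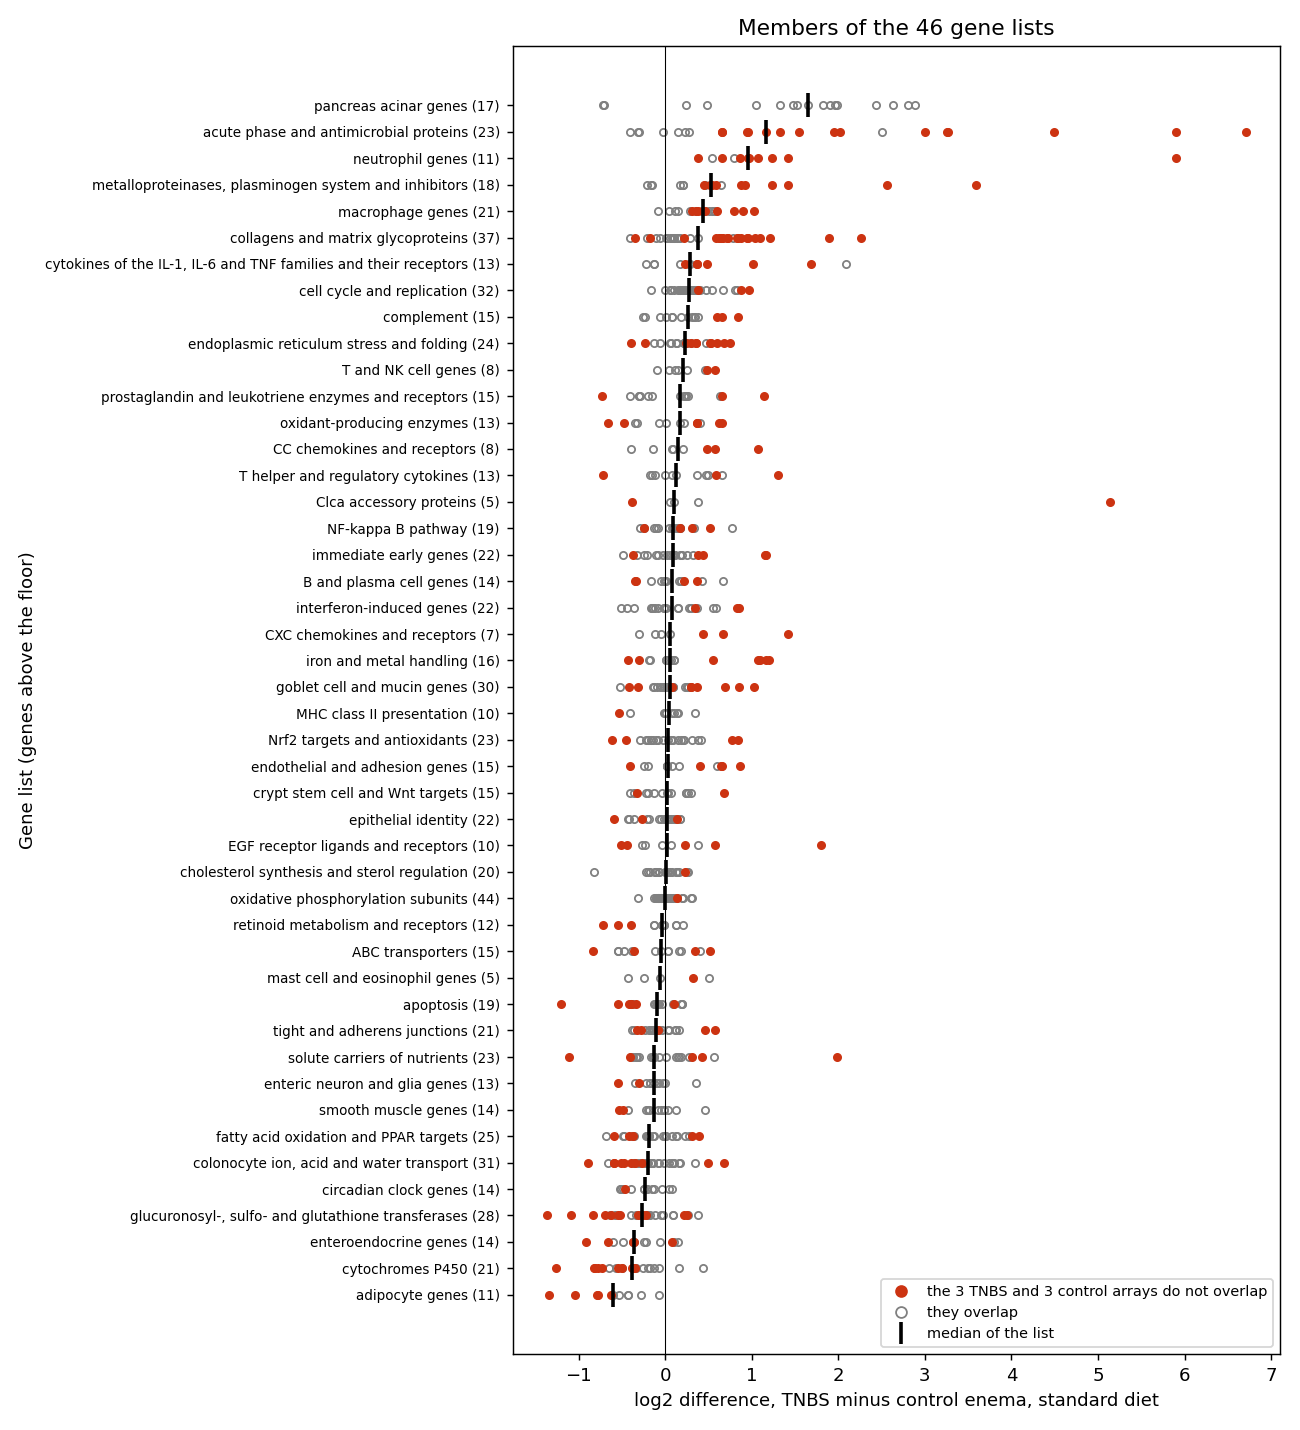
Log2 difference between TNBS and control enema for the members of 46 gene lists above the floor, ordered by the median (black mark), with the number of genes in parentheses. Filled red points are genes whose 3 TNBS and 3 control samples do not overlap. Acute phase, neutrophil and metalloproteinase lists lie furthest to the right apart from the pancreas list, which has no filled point, and adipocyte and cytochrome P450 lists furthest to the left.

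Matrix genes were higher in part. Of 37 collagens and matrix glycoproteins above the floor, 18 were higher without overlap and 2 (Postn and Col14a1) lower. The shares of all genes were 7.67% and 7.31%. The median was 0.38, with 0.30 and 0.48 within the array sets. Over the 40 on the arrays, 19 were higher and 2 lower. Lox, the lysyl oxidase that crosslinks collagen, read 359.9, 287.8 and 358.0 in the control and 1251.6, 921.4 and 1667.3 in the TNBS samples. Its log2 difference was 1.90 ± 0.42 and its adjusted p 0.18. Thbs1, the matricellular protein thrombospondin 1, read 556.6, 391.0 and 426.9 against 922.4, 876.3 and 1440.0, with an adjusted p of 0.308. The fibrillar chains Col1a1, Col1a2, Col5a1 and Col5a2 had log2 differences of 0.87, 0.65, 0.62 and 0.83, and the basement membrane chains Col4a1 and Col4a2 had 0.73 and 0.66.

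Of 18 metalloproteinases, plasminogen system genes and inhibitors above the floor, 10 were higher without overlap and 0 lower, with a median of 0.53. The shares of all genes were 7.67% higher and 7.31% lower. Over the 26 on the arrays, 11 were higher and 0 lower. Timp1, an inhibitor of metalloproteinases, read 95.8, 286.9 and 159.9 in the control and 1017.2, 721.9 and 1221.3 in the TNBS samples. Its log2 difference was 2.56 ± 0.41, with an adjusted p of 0.0734, and 0.0471 with array set in the model. Serpina3n, a serine protease inhibitor of the acute phase, read 110.3, 44.3 and 211.6 against 1188.7, 1099.6 and 1381.5, with an adjusted p of 0.266. Mmp9, the gelatinase that neutrophils carry, was measured by a dim probe set that read 26.4, 33.5 and 32.4 against 379.1, 133.1 and 431.7, and by a brighter one that read 202.9, 149.6 and 187.2 against 540.6, 339.1 and 406.4. Both Mmp9 probe sets separated the groups, with log2 differences of 3.19 ± 0.50 and 1.24 ± 0.24.

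In the epithelium, Clca4b had the largest difference on 430B. It belongs to a family of secreted metalloproteases that modify calcium-activated chloride channels. Its signals were 216.3, 290.6 and 304.3 in the control and 12339.8, 4324.2 and 15797.4 in the TNBS samples, a fold of 35.3 and a log2 difference of 5.14 ± 0.56 with an adjusted p of 0.00851. TNBS 2 was the lowest of the 3 and still far above the highest control sample. The call was lost without control 3 (adjusted p = 0.0598) and without TNBS 1 (adjusted p = 0.116), where the log2 differences were 5.24 and 4.95. Its paralogue Clca4a read 25664.8, 20644.9 and 17629.6 against 18556.2, 23095.2 and 27287.4, with overlapping groups. Clca1, the goblet cell member, read 13481.0, 15352.5 and 14003.5 against 9404.6, 12169.9 and 11473.1, with an adjusted p of 0.522. The 3 family members thus differed in size and sign, and the unnamed probe set on 430B that passed read 29.0, 39.1 and 39.9 against 1893.2, 446.6 and 1042.0, with an adjusted p of 0.0209, which rose to as much as 0.183 with 1 of the 6 samples left out. Whether the probes tell these close paralogues apart was not tested.

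Goblet cell genes were mixed: of 30 above the floor, 7 were higher without overlap and 2 lower, with a median of 0.06. The shares of all genes were 7.67% higher and 7.31% lower. Spink4, a trypsin inhibitor of goblet cells, read 6576.1, 6043.9 and 6271.8 in the control and 10227.3, 11587.0 and 12351.0 in the TNBS samples, with an adjusted p of 0.354. Atoh1, the transcription factor that specifies secretory cells, read 3791.5, 3158.6 and 2874.6 against 2052.5, 2676.1 and 2661.4, and passed with array set in the model at 0.0471 (0.615 without it). That pass was a condition for naming Atoh1. Muc2, the main gel-forming mucin, read 64968.5, 84473.4 and 91882.6 against 102645.9, 74482.7 and 80277.1, with overlapping groups. Fut2, the fucosyltransferase that decorates mucins, had 2 probe sets with log2 differences of 1.02 ± 0.38 on 430A and 1.80 ± 0.33 on 430B, and the adjusted p-values were 0.522 and 0.231.

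Of 24 genes for protein folding in the endoplasmic reticulum above the floor, 9 were higher without overlap and 2 (Ern1 and Dnajb9) lower. The shares of all genes were 7.67% and 7.31%. The median of the list was 0.24, with 0.10 and 0.36 within the array sets. Manf, a secreted stress-response protein, read 1371.9, 1168.5 and 1304.9 in the control and 2098.8, 2055.8 and 2280.6 in the TNBS samples, with an adjusted p of 0.218. Dnajb11 and Pdia6, a co-chaperone and a disulfide isomerase, had log2 differences of 0.68 ± 0.24 and 0.60 ± 0.22. In both, control 1 was the highest control sample, at 1029.8 and 1994.8.

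Metal-handling genes went both ways. The metallothioneins Mt1 and Mt2, which bind zinc and copper, read 1795.2, 2793.9 and 2967.7 against 8355.9, 4322.7 and 4047.0, and 1307.2, 1872.8 and 2212.6 against 5240.7, 3977.3 and 3156.4. Their log2 differences were 1.10 ± 0.28 and 1.20 ± 0.24, with adjusted p-values of 0.255 and 0.118, and the other Mt1 probe set had 0.20. Ceruloplasmin (Cp), a copper ferroxidase, read 312.5, 421.0 and 441.9 against 1180.6, 638.7 and 860.4. The log2 difference of this Cp probe set was 1.16, and its 7 other probe sets had 0.19 to 1.62. The iron exporter ferroportin (Slc40a1) and its partner hephaestin (Heph) differed the other way without overlap, by -0.43 and -0.30, while the transferrin receptor (Tfrc) and the metalloreductase Steap4 were higher, by 0.56 and 1.07. In all, 5 of 16 genes of the list were higher and 2 lower without overlap, against 7.67% and 7.31% of all genes.

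Many detoxification genes were lower. Of 21 cytochromes P450 above the floor, 10 were lower without overlap, against 7.31% of all genes, and 0 higher, with a median log2 difference of -0.39 and -0.49 and -0.60 within the array sets. Cyp2d26 read 1237.7, 750.6 and 791.2 in the control and 335.7, 554.8 and 289.8 in the TNBS samples. Cyp2f2, which oxidises small aromatic compounds, read 1400.9, 820.8 and 1109.8 against 384.5, 760.0 and 799.4. Cyp4f14, a fatty acid hydroxylase, read 1813.6, 1088.6 and 1076.3 against 502.7, 1034.3 and 822.0. The groups came close in Cyp2f2 and Cyp4f14 and did not overlap. Their adjusted p-values were 0.311, 0.449 and 0.5, and Cyp4f14 passed with array set in the model at 0.049. That pass was a condition for naming Cyp4f14.

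The conjugating enzymes were similar in direction. The list of glucuronosyl-, sulfo- and glutathione transferases also holds Nat2, an N-acetyltransferase. Of its 28 genes above the floor, 10 were lower and 2 (Gsta4 and Gstt2) higher without overlap, with a median of -0.27. Nat2 was among the 10, at 616.0, 477.6 and 481.6 in the control and 436.7, 473.8 and 399.3 in the TNBS samples. The shares of all genes were 7.31% lower and 7.67% higher. Ugt2b5, which glucuronidates steroids and xenobiotics, read 372.0, 323.6 and 416.1 in the control and 139.7, 180.4 and 117.9 in the TNBS samples, a log2 difference of -1.36 ± 0.27 with an adjusted p of 0.118. Sult1a1, a phenol sulfotransferase, read 6493.4, 7494.8 and 4837.9 against 1982.0, 4055.8 and 3035.1, with -1.09 ± 0.24 and 0.178. Sult1c2 read 838.2, 716.6 and 769.4 against 268.1, 658.7 and 463.1, with -0.83 ± 0.25 and 0.383. In Sult1a1 and Sult1c2, TNBS 1 was the lowest sample and TNBS 2 the nearest to the control samples. Abcb1a, the drug efflux pump P-glycoprotein, read 5235.3, 4928.8 and 4587.7 against 2231.0, 3443.6 and 2710.1, with an adjusted p of 0.0822, and 0.0392 with array set in the model.

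Of 31 genes for colonocyte ion, acid and water transport, 8 were lower and 2 (Slc9a3 and Kcnma1) higher without overlap. The shares of all genes were 7.31% lower and 7.67% higher. Aqp8, the aquaporin of surface colonocytes, read 4375.0, 3911.5 and 3314.2 in the control and 2459.0, 2692.9 and 2490.7 in the TNBS samples, with an adjusted p of 0.522. Slc20a1, a phosphate transporter, read 3542.9, 2402.9 and 2714.5 against 1380.7, 1564.9 and 1670.9, with 0.099. Slc9a3, the apical sodium-proton exchanger NHE3, read 5094.5, 5559.3 and 7106.8 against 9125.8, 9096.9 and 10066.0, with 0.697. The list of epithelial identity genes had 1 of 22 higher and 2 lower, near the shares of all genes, with a median of 0.02. Tight and adherens junction genes had 2 of 21 higher and 3 lower.

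**Figure D3:**
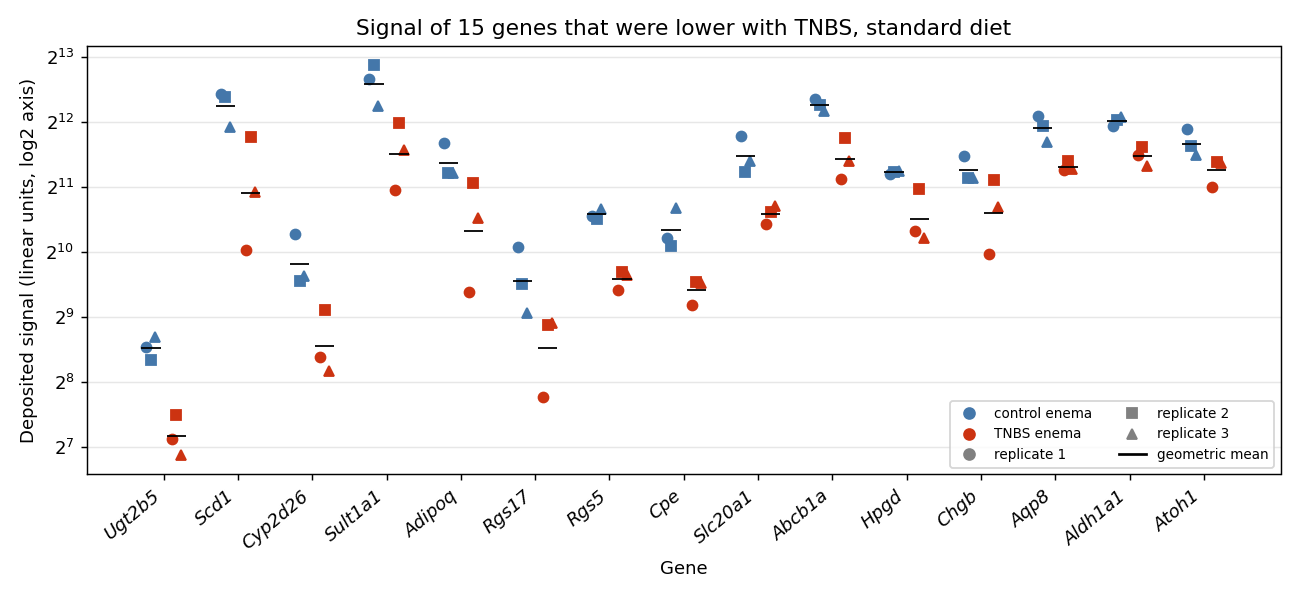
Deposited signal of 15 genes on a log2 axis in the 3 control (blue) and 3 TNBS (red) samples on the standard diet, with a bar at the geometric mean of each group and a marker shape for each replicate. The groups do not overlap for any of the 15 genes. TNBS 1 is the lowest sample for all of them but Ugt2b5, Cyp2d26, Hpgd and Aldh1a1, where TNBS 3 is the lowest.

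Rgs5, a regulator of G protein signalling that marks pericytes, read 1509.4, 1463.2 and 1629.3 in the control and 687.2, 827.8 and 806.5 in the TNBS samples. Its log2 difference was -0.99 ± 0.14, with an adjusted p of 0.0734, and 0.0392 with array set in the model, and it was singled out after its values were seen. Rgs17, of the same family, read 1079.8, 729.8 and 534.0 against 218.4, 472.4 and 481.7, with 0.387 and 0.0466, but its other probe set had a log2 difference of -0.05 where this one had -1.03. Rgs17 was named only because it passed with array set in the model. Of the 14 smooth muscle genes above the floor 0 were higher and 2 (Myl9 and Myh11, whose other probe set had -0.10) lower without overlap. Of the 13 enteric neuron and glia genes 0 were higher and 2 (Uchl1 and Nefl) lower. The shares of all genes were 7.67% higher and 7.31% lower.

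Of 14 enteroendocrine genes above the floor, 4 were lower and 1 (Neurod1) higher without overlap, against 7.31% and 7.67% of all genes. The median of the list was -0.36, with -0.36 and -0.38 within the array sets. Cpe, the carboxypeptidase that trims prohormones, read 1195.8, 1098.2 and 1647.7 in the control and 580.2, 746.1 and 740.1 in the TNBS samples, with an adjusted p of 0.118. Its other probe set went the other way, with a log2 difference of 0.37 against -0.92. Chgb, a granin of hormone granules, read 2864.3, 2253.2 and 2266.0 against 1003.3, 2213.8 and 1665.4, where TNBS 2 lay just under the control samples. The hormone genes Sct and Sst had log2 differences of -0.37 and -0.35.

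Adipocyte genes, which in whole colon can come from attached fat, were lower in 5 of 11 without overlap and higher in 0. The shares of all genes were 7.31% lower and 7.67% higher. The median of the list was -0.61, with -0.41 and -1.08 within the array sets. Scd1, the stearoyl-CoA desaturase, read 5540.5, 5378.0 and 3876.5 in the control and 1046.8, 3488.9 and 1942.1 in the TNBS samples. Adipoq, the fat cell hormone adiponectin, read 3291.8, 2368.6 and 2378.3 against 666.4, 2145.0 and 1479.6. Car3, the carbonic anhydrase of fat, read 7254.9, 6852.6 and 6561.0 against 2131.4, 6264.5 and 4768.5, and its 3 other probe sets had log2 differences between -0.51 and 0.41. Scd1, Adipoq and these Car3 signals had the same order, with TNBS 1 lowest and TNBS 2 highest among the TNBS samples, and their adjusted p-values were 0.41, 0.449 and 0.613. Of the 49 named probe sets that were lower without overlap, 25 had this order, among them Cyp4f14, Sult1a1, Sult1c2, Chgb, Abcb1a, Clca1, Myh11 and Myl9. It was seen in 276 (29.3%) of the 943 lower genes. The part of attached fat in these differences was not tested.

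Of 19 apoptosis genes, 6 were lower and 1 (Bak1) higher without overlap, against 7.31% and 7.67% of all genes. Several separated narrowly. The highest TNBS and lowest control signals were 603.4 and 606.0 for Bad, 205.9 and 208.6 for Bbc3, and 207.9 and 208.4 for Pmaip1. For Bak1 the lowest TNBS signal was 633.8 and the highest control signal 632.9. The other Bad probe set had a log2 difference of -0.07. Casp1, Mcl1 and Xiap were further apart. Mcl1, an inhibitor of cell death, read 4183.5, 4601.6 and 4908.2 in the control and 2867.8, 3031.6 and 3517.0 in the TNBS samples, with an adjusted p of 0.168. Cell cycle and replication genes had 3 of 32 higher and 0 lower without overlap, against 7.67% and 7.31% of all genes. In this list 30 of 32 differences were above 0, against 6216 of 12908 for all genes kept. The median of the list was 0.27 over both array sets and 0.14 and 0.51 within them. Oxidative phosphorylation subunits had 1 of 44 higher and 0 lower, with a median of -0.004, and genes of cholesterol synthesis 1 of 20 higher and 0 lower.

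Genes of the exocrine pancreas varied between samples without separating the enema groups. The digestive enzyme gene Cpa1 read 6.3 in control 1 but 12596.6 and 9485.9 in controls 2 and 3, and 8893.2, 2759.3 and 12427.5 in the TNBS samples. Prss2, a trypsinogen, read 165.4, 16509.0 and 12558.9 against 16551.9, 6249.5 and 19866.2. The 17 acinar genes above the floor had a median log2 difference of 1.65, with 5.70 within array set 1 and -0.07 within array set 2, and 0 of them separated the groups. Reg1, a pancreatic Reg gene, followed the same samples, at 97.3, 9999.1 and 5317.2 against 15043.9, 4903.5 and 12990.7. Reg2, on the acute phase list, read 113.5, 2529.4 and 1242.1 against 20139.1, 11897.5 and 16937.6, so that it was lowest in the sample with the lowest acinar genes and still separated the groups. Reg3b and Reg3g in control 1 (4167.3 and 554.5) lay between the values of controls 2 and 3. Reg3a had the control order of Cpa1, at 18.8, 64.2 and 30.3. On the curcumin diet Reg3a read 1471.4 in control 3 and 638.2 in TNBS 1, where Cpa1 was highest (5579.5 and 10027.3). In TNBS 3 of that diet Cpa1 read 1762.5 and Reg3a 47.1. The part of pancreatic tissue in the Reg2 and Reg3a differences was not tested.

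Genes of the seminal vesicle were high in TNBS 3 alone. Svs4 read 19503.8 there and 6.6 to 9.6 in the other 5 samples, and Svs2 and Svs5 read 4677.2 and 10558.1 there. Without TNBS 3 the differences for Svs2, Svs4 and Svs5 were below 0, at -0.33, -0.29 and -0.57, and Lcn2 still had a log2 difference of 5.76.

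**Figure D4:**
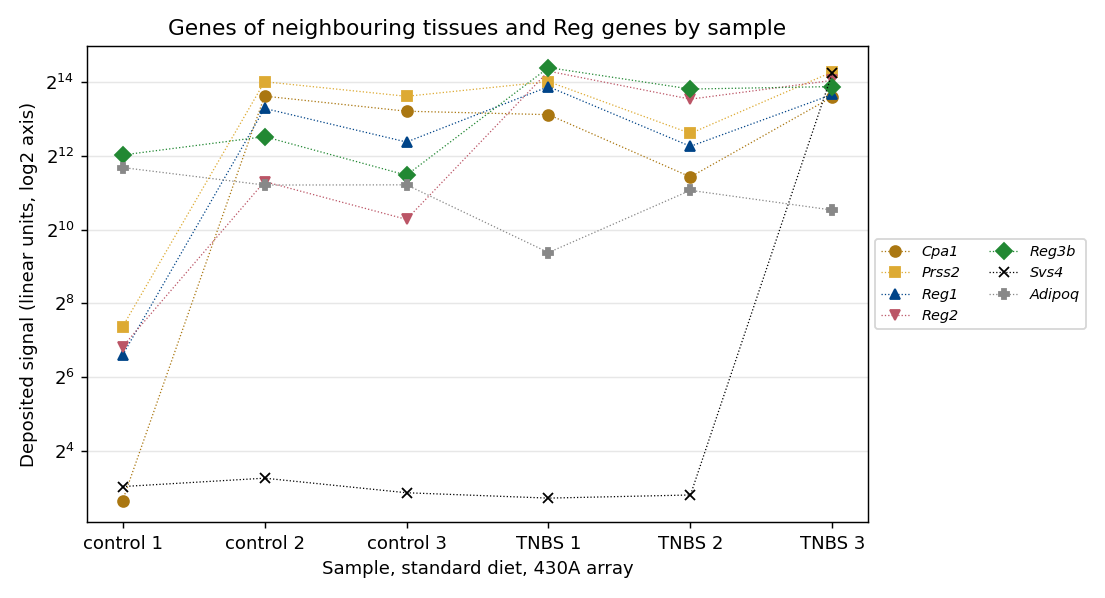
Deposited signal on a log2 axis in each of the 6 standard-diet samples on 430A for the acinar genes Cpa1 and Prss2, the Reg genes Reg1, Reg2 and Reg3b, the seminal vesicle gene Svs4 and the fat gene Adipoq; dotted lines join the samples of 1 gene and have no meaning in time. Cpa1 is at 6.3 in control 1, Svs4 is at 19503.8 in TNBS 3, and Reg3b is higher in the 3 TNBS samples than in the 3 control samples.

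The same contrast on the curcumin diet, made from other arrays, served to ask whether the response on the standard diet differed from it. Over the genes above the floor, 727 (5.63%) were higher and 828 (6.41%) lower without overlap with TNBS on that diet. Lcn2 read 82.1, 101.1 and 710.1 in the curcumin-diet control and 134.5, 123.0 and 159.0 in the curcumin-diet TNBS samples. The difference of the 2 log2 differences was 6.29 ± 0.91 (SE), with an adjusted interaction p of 0.246. For S100a8, Saa3, Reg3g and Il1b these values were 5.06 ± 1.29, 3.80 ± 0.68, 3.91 ± 0.72 and 1.60 ± 0.39, with adjusted p-values of 0.363, 0.291, 0.291 and 0.351. None of the 22626 probe sets on 430A passed (0.00%) in limma, with 1842 at an unadjusted p under 0.05.

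Replicate 3 of the curcumin-diet control group stood out from its group for several of these genes. Hp read 348.2 there against 34.9 and 16.7, Lrg1 read 373.7 against 22.7 and 13.1, and Clca4b read 2830.0 against 510.1 and 808.4. Its S100a8 and S100a9 signals, 124.9 and 147.2, were far below those of the standard-diet TNBS samples.

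On 430B, 4 of 22511 probe sets (0.0178%) passed the interaction test, namely Clca4b, Rhbdf2, Casp9 and Tmem181a. Rhbdf2 encodes iRhom2, which brings the TNF-shedding protease ADAM17 to the cell surface. It read 200.6, 283.3 and 362.5 in the standard-diet control and 759.4, 993.7 and 1145.8 in the standard-diet TNBS samples. On the curcumin diet it read 587.2, 720.9 and 481.4 with control enema and 252.9, 221.9 and 188.4 with TNBS. The standard-diet groups were ordered one way and the curcumin-diet groups the other, without overlap in either, and the interaction was 3.22 ± 0.38 with an adjusted p of 0.0109. Casp9, an initiator caspase, had an interaction of 3.89 ± 0.48, but its other 2 probe sets had standard-diet differences between -0.37 and -0.20 where this one had 1.62. Without the 2 outlying arrays, 1 array is left in the curcumin-diet TNBS group and is assumed to vary like the other groups. The interactions were then 7.44 ± 1.00 for Clca4b, 3.02 ± 0.46 for Rhbdf2, 3.84 ± 0.62 for Casp9 and 1.70 ± 0.27 for Tmem181a, with adjusted p-values between 0.119 and 0.19. Groups that did not overlap on either diet, in opposite directions, were seen for 15 of the 158 named probe sets (9.49%) and for 244 of 12908 genes above the floor (1.89%), and the named ones were largely chosen for separating the standard-diet groups.

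**Figure D5:**
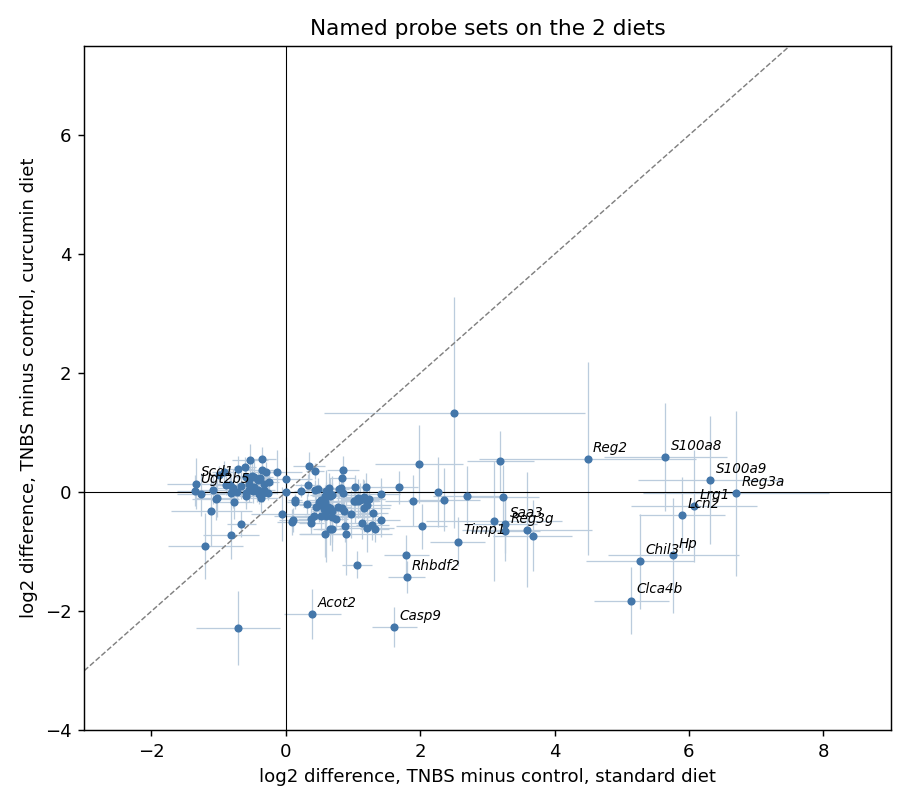
Log2 difference between TNBS and control enema on the standard diet (horizontal axis) and on the curcumin diet (vertical axis) for the named probe sets except Cpa1, Prss2, the Svs genes and those without a gene name; bars are standard errors from limma and the dashed line marks equal differences. The points with the largest standard-diet differences, such as Lcn2 at 5.90, lie below the dashed line, with Lcn2 at -0.39 on the curcumin diet.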

How the data were processed

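Total RNA of whole colon was hybridised to Affymetrix MOE430A and MOE430B arrays. The deposited values are 1 intensity per probe set on a linear scale, produced by the authors in GCOS (no version given), per the submitters' processing notes. There is no read depth for arrays; the precision is limited by how many there are. Names came from the platform annotation: 20380 of 22626 probe sets on 430A and 14661 of 22511 on 430B have 1 symbol, 691 and 245 have several, 1555 and 7605 have none.

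Here the signals were log2-transformed without a pseudocount or filter, leaving out 64 control probe sets per type. Each type was fitted alone over 12 arrays in 4 groups with limma 3.58.1 (R 4.3.3), lmFit and eBayes with an intensity trend, which leaves 8 residual degrees of freedom. P-values are two-sided, adjusted by Benjamini-Hochberg within an array type, with a threshold of 0.05. The scripts were tested on simulated data. Values with ± are log2 differences and their SE from this fit, with n = 3 per group. No array pair was identical.

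Named are probe sets past the threshold; the 10 largest rises and falls among genes above the floor that separate the groups and pass with array set in the model or without the outlying arrays; up to 3 members per list by absolute difference among those that separate the groups; and Il1b, Tnf, Il6, Ifng, Il10, Il17a, Nos2, Ptgs2, Muc2, Lcn2, Reg3b, Reg3g and Saa3. Others were chosen after their values were seen, as were the paralogues, second probe sets and genes given with a log2 difference alone. The comparison, the 46 lists and the tests were chosen with earlier results of these data known. Promoters are from RefSeq, GRCm38.p6. Alternatives were quantile normalization, median centring, pseudocounts of 16 and 64, a filter on the 40th percentile, no trend, array weights, the 6 arrays alone, array set in the model, the outlying arrays left out and each sample left out in turn. For the lists, the mean over a gene's probe sets was tried too, and, added after the data were seen, every gene on the arrays.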

Additional observations from a re-analysis of the deposited data

Results flagged for a closer look

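The response to TNBS differed between the diets by a test of the difference itself for 4 named probe sets on 430B. The adjusted interaction p was 0.0109 for Casp9, 0.0109 for Clca4b, 0.0109 for Rhbdf2 and 0.029 for Tmem181a. With the 2 outlying curcumin-diet TNBS arrays left out, which leaves 1 array in that group, their interactions were 3.84, 7.44, 3.02 and 1.70 on the log2 scale and none of them passed.

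For 11 other genes among the 158 named probe sets, every standard-diet TNBS sample lay on one side of the standard-diet control samples and every curcumin-diet TNBS sample on the opposite side of its own controls. The same pattern, with those 4, held for 15 of the 158 named probe sets (9.49%), which were largely named for separating the standard-diet groups, and for 244 of 12908 genes above the floor (1.89%). The 11 were picked out by direction alone, and none of them passed the interaction test. Higher with TNBS on the standard diet and lower on the curcumin diet were Acot2, Gda, Lbp, Mpo, Ptgs2, Slc9a3 and Timp1, with curcumin-diet log2 differences of -2.04, -0.55, -0.63, -0.62, -0.52, -0.62 and -0.83. Lower on the standard diet and higher on the curcumin diet were Abcb1b, Aldh1a1, Il15 and Sparcl1, with curcumin-diet log2 differences of 0.56, 0.22, 0.39 and 0.26. Acot2, Gda, Slc9a3 and Abcb1b were read on 430B, where the 2 outlying arrays are in the curcumin-diet TNBS group. With the 1 array left in that group their curcumin-diet differences were -0.63, -0.42, -0.44 and 0.38.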

How the results depend on the processing

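No paired analysis was possible because the 12 samples carry numbers that no 2 groups share. On 430A the main count of 1 higher and 0 lower became 8 and 1 with a pseudocount of 16, 12 and 1 with one of 64, 88 and 52 with array weights, 20 and 9 with array set in the model, 12 and 0 with the 6 arrays alone, and 0 and 0 without an intensity trend. On 430B the count of 2 higher became 1 with the filter at the 40th percentile, with or without a pseudocount of 16, 8 with array weights, 14 with the 6 arrays alone and 0 without a trend. With each sample left out in turn, the counts ran from 0 to 49 higher and 0 to 7 lower on 430A and from 0 to 7 higher and 0 to 1 lower on 430B. The 4 interaction calls became 0 without a trend, 63 with array weights and 0 without the 2 outlying arrays, and ran from 2 to 12 with a sample left out. Signs turned for Il10 (-0.004 with a pseudocount of 64, -0.253 with array weights), Lgals4 (-0.074 with quantile normalization), Muc2 (0.000 with quantile normalization), Il17a and Nos2 (-0.199 and -0.115 with array weights), Ifng (0.029 with array weights, 0.052 with the array set) and Tnf (0.081 with the array set). With a sample left out, values also crossed 0 for Cpa1 (-0.700 to 4.78), Prss2 (-0.180 to 3.14), Svs2 (-0.333 to 5.47), Svs4 (-0.291 to 5.47), Svs5 (-0.569 to 5.28), Il10 (-0.276 to 0.154), Il17a (-0.186 to 0.108), Nos2 (-0.091 to 1.27), Ifng (-0.352 to 0.258), Tnf (-0.334 to 0.176), Muc2 (-0.052 to 0.198) and Clca4a (-0.025 to 0.253). The causes were not tested. For the named probe sets, 1442 of 1542 values under settings other than a left-out sample kept direction and side of the threshold, and 1835 of 1896 with a sample left out. Of 376 list counts, 47 moved by more than 1.5 times. Dim probe sets limit what can be seen of the cytokines.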

Other observations

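Some further probe sets separated the groups and passed in at least 2 of 4 fits, which are the fit over 12 arrays, the one with the array set or without the outlying arrays, the 6 arrays alone, and the one without replicate 3 of the curcumin-diet controls, the omission that gave the most calls. They were chosen after their values were seen, and Csf2rb is also on the list of T helper and regulatory cytokines. Emb, a cell-surface partner of monocarboxylate transporters, read 54.5, 50.9 and 44.0 in the control and 324.8, 285.9 and 303.4 in the TNBS samples, with limma adjusted p-values of 0.0766, 0.0392, 0.0314 and 0.0358 in the 4 fits. Igfbp4, which binds insulin-like growth factors, read 1613.0, 1284.8 and 1455.9 against 2751.9, 2408.3 and 3310.9, with limma adjusted p-values of 0.0734, 0.0392, 0.114 and 0.0316. Another, brighter Igfbp4 probe set read 2353.5, 2025.5 and 2205.3 against 4576.6, 3915.8 and 5804.5. Its limma adjusted p-values were 0.155, 0.0874, 0.0846 and 0.0224, so it passed only without replicate 3 of the curcumin-diet controls. Csf2rb, the shared receptor subunit for GM-CSF, IL-3 and IL-5, read 1090.3, 1068.7 and 1243.9 against 2874.4, 2375.0 and 3199.6, with limma adjusted p-values of 0.166, 0.134, 0.0422 and 0.047. Pappa, a protease that cleaves binding proteins of insulin-like growth factor, read 331.3, 301.1 and 339.0 against 929.7, 917.0 and 1020.2, with limma adjusted p-values of 0.39, 0.415, 0.0422 and 0.047. Over these 4 fits, 81 probe sets passed in at least 1, of which 68 were higher and 13 lower, and 3 passed in all 4 fits.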
